A study of Homo sapiens with 28 samples.

Results

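The genes described here were 8 genes of cholesterol synthesis and its feedback control, HMGCS1, SQLE, FDPS, FDFT1, IDI1, LSS, DHCR7 and INSIG1, found by symbol among the 58278 genes of the count table. Each symbol matched 1 row, and all 8 genes passed the filter on low counts in tumors and in cultures. They were followed in HCT116 cells, an established human colorectal carcinoma line, which carried a luciferase and GFP reporter and had been implanted under the skin of 5-week-old male NOD-SCID mice, animals whose Prkdc mutation leaves them without mature T and B cells but with other blood cells and stroma of their own. The mice received vehicle (Control), Palbociclib at 100 mg/kg/day, Telaglenastat at 150 mg/kg/day or both drugs by oral gavage for 23 days. Palbociclib inhibits the cell cycle kinases CDK4 and CDK6, and Telaglenastat inhibits glutaminase, the enzyme that converts glutamine to glutamate. RNA-seq covered 16 residual tumors, namely 3 Control, 5 Palbociclib, 4 Telaglenastat and 4 combination tumors, and 12 cultures of cells dissociated from such tumors and grown without drugs in medium with serum, 3 for each former treatment. All groups derive from 1 cell line, and the tumor that gave each culture is not recorded. The p-values below measure the spread between these samples, which may in part be technical.

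Cells build cholesterol from acetyl-CoA through mevalonate, isoprenoid diphosphates, squalene and a series of sterols. The transcription factor SREBP2 drives most genes of this route. When sterols in the endoplasmic reticulum are scarce, its escort protein SCAP carries it to the Golgi, where proteases release the active part, and when sterols are plentiful, INSIG proteins hold the pair back, so that the genes tend to rise and fall together. INSIG1 is itself a target of SREBP2, which closes a feedback loop. Proliferating tumor cells use the route for membranes and for the prenyl groups of signalling proteins, and glutamine is among the carbon sources that can feed acetyl-CoA.

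By their place in the route, HMGCS1 makes HMG-CoA, the precursor of mevalonate. IDI1 interconverts the isoprene units and FDPS joins them into farnesyl diphosphate. FDFT1 is squalene synthase, SQLE opens the sterol branch by oxidizing squalene, LSS closes the ring to lanosterol and DHCR7 reduces a late sterol to cholesterol. In GENCODE release 29 on GRCh38, HMGCS1 lies on chromosome 5, 43289395 to 43313512, IDI1 on chromosome 10, 1039152 to 1049170, FDPS on chromosome 1, 155308748 to 155320666, LSS on chromosome 21, 46188141 to 46228824, DHCR7 on chromosome 11, 71428193 to 71452868 and INSIG1 on chromosome 7, 155297776 to 155310235. FDFT1 and SQLE lie on opposite arms of 1 chromosome, at chromosome 8, 11795573 to 11839309 and chromosome 8, 124998497 to 125022283. The genes fell into 2 ranges of exonic GC content, 41.6% in HMGCS1, 41.6% in IDI1, 42.4% in SQLE, 47.2% in INSIG1 and 48.9% in FDFT1, against 54.3% in FDPS, 57.4% in DHCR7 and 58.5% in LSS. Antisense genes share 703 exonic bases with HMGCS1 (AC114947.2), 693 with FDPS (RUSC1-AS1) and 643 with IDI1 (IDI2-AS1), and whether reads were counted by strand is not given in the sources used here, so reads of these partners cannot be told apart.

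Library totals lay at 6273834 to 10617936 counted reads in tumors and 7198540 to 13815675 in cultures. Each of the 8 genes had at least 85 counts in every library. Together they took 0.118 to 0.129% of the counts in Control, 0.0749 to 0.0873% in Palbociclib, 0.0977 to 0.106% in Telaglenastat and 0.0759 to 0.0962% in combination tumors. In cultures they took 0.0814 to 0.102%, 0.0804 to 0.102%, 0.0640 to 0.115% and 0.0669 to 0.0951% in the same order. Libraries differed in how counts leaned on GC content. The slope of each gene's deviation from its mean log2 CPM on GC content, per SD of GC content across genes, was 0.255 ± 0.00606 (SD) in Control, 0.284 ± 0.107 in Palbociclib, -0.338 ± 0.0355 in Telaglenastat and -0.208 ± 0.0573 in combination tumors, and reached 0.422 in Telaglenastat culture 2. Comparisons are therefore given as counted and after a correction that removed each library's trend on GC content and exon length, and whether the trend arose in the cells or in the libraries cannot be told apart here. Markers of fibroblasts, 6 genes with LUM at 0 in all tumors and DCN at or near 0, summed to 151 to 192 CPM (counts relative to the scaled library size, as for all levels below) in Control, 109 to 187 in Palbociclib, 48.01 to 61.1 in Telaglenastat and 95.1 to 142 in combination tumors. The 6 markers of macrophages and leukocytes, with PTPRC and CD14 at or near 0, summed to 14.9 to 19.8, 22.2 to 31.02, 3.02 to 10.05 and 10.2 to 16.7 CPM in the same order. The 6 of epithelial cancer cells, with VIL1 at no more than 5.53 CPM in any tumor, summed to 2619 to 3162, 2879 to 3991, 1553 to 1712 and 2258 to 2549 CPM. In cultures the epithelial markers summed to at least 1319 CPM. In such bulk samples fewer cells of a type and less RNA per cell cannot be told apart, and how mouse reads were handled is not given in the sources used here. The part of these marker levels in the results below was not tested.

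In Control tumors, the level per kilobase of exon was highest for HMGCS1, at 47.98 ± 3.38 CPM per kb (SD, n = 3), and was 44.9 ± 3.48 for FDFT1 and 43.3 ± 2.70 for FDPS. These 3 levels overlapped within their spread. SQLE stood at 35.5 ± 1.505, INSIG1 at 27.9 ± 3.13, IDI1 at 24.1 ± 3.15 and DHCR7 at 21.3 ± 3.01 CPM per kb. LSS, the lanosterol synthase, was the lowest of the 8, at 8.24 ± 0.176. Across the 8 conditions, the highest group mean as counted was 4.03 times the lowest for LSS, 2.89 for DHCR7, 1.92 for IDI1, 1.79 for HMGCS1, 1.751 for INSIG1, 1.70 for FDPS, 1.46 for FDFT1 and 1.43 for SQLE. As counted, Palbociclib tumors had the lowest group mean of the 8 conditions for HMGCS1, SQLE, FDFT1, IDI1 and INSIG1, the 5 genes of lower GC content. Their HMGCS1 levels, 137 to 157 CPM, lay within the 113 to 204 CPM of Telaglenastat cultures. Corrected, HMGCS1 lay at 162 to 198 in Palbociclib tumors and 107 to 166 in combination cultures. SQLE lay at 141 to 177 and 108 to 142, so the ranking did not hold for these genes after the correction. Also as counted, the combination cultures had the lowest mean for LSS and the combination tumors for FDPS, while for DHCR7 the combination cultures, at 30.6 ± 4.58 CPM (SD, n = 3), and the combination tumors, at 31.1 ± 3.67 CPM (SD, n = 4), did not differ beyond their spread. With the correction FDPS lay at 80.4 to 94.9 in Palbociclib and 83.7 to 117 in combination tumors, and the groups overlapped.

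**Figure D1:**
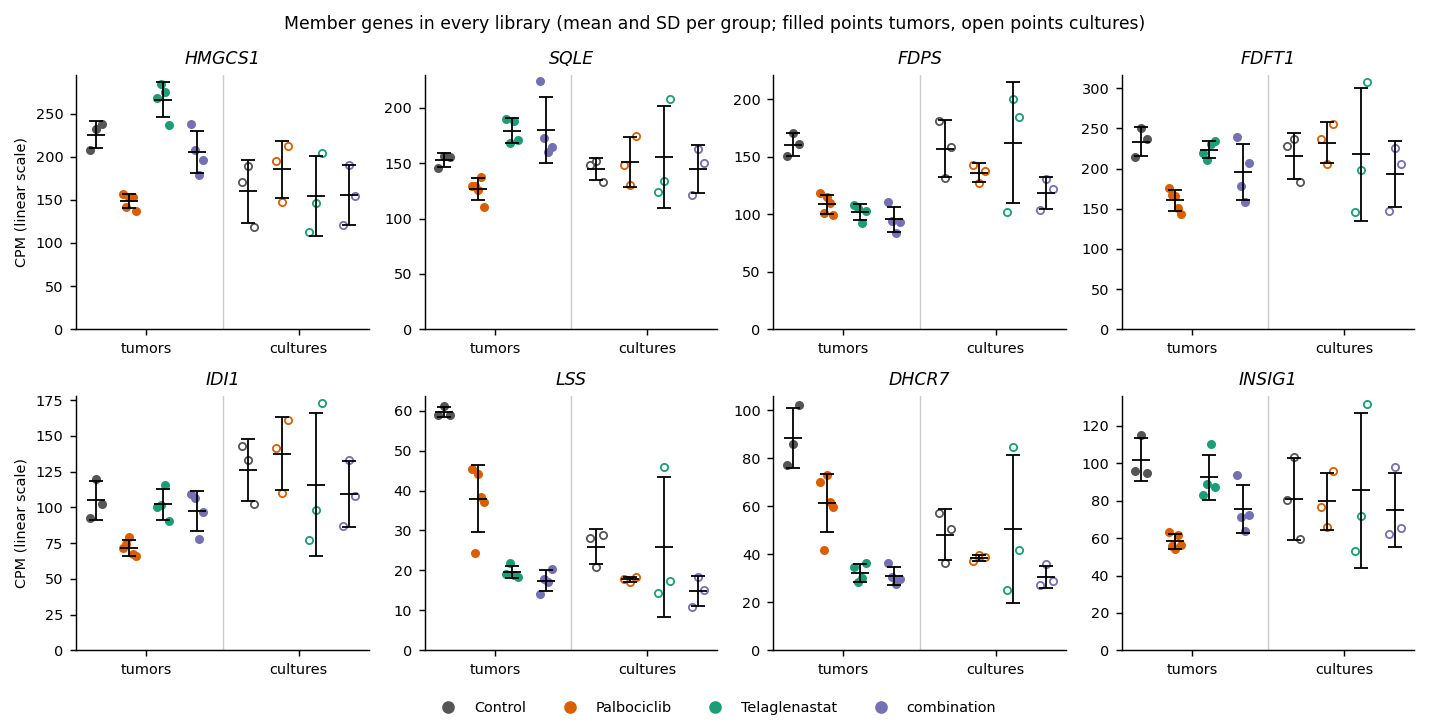
CPM levels of the 8 genes in each of the 28 libraries, by group, with tumors and cultures side by side. Points are libraries and bars are group means with SD. LSS lies at 58.9, 61.1 and 58.9 CPM in Control tumors and at most 21.8 CPM in Telaglenastat tumors, and the Palbociclib tumors lie below the Control tumors for each gene.

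Palbociclib tumors held less RNA of most of the set. Of the 8 genes, 7 were lower than in Control tumors and none was higher. Calls here and below rest on an adjusted p under 0.05, from the quasi-likelihood test of edgeR after Benjamini-Hochberg adjustment across the 14848 genes tested in tumors. Among these, 3.60% were lower and 2.55% higher with Palbociclib. The median log2 fold change was -0.55 for the 8 genes and 0.00 for all genes. After the correction for GC content and length 7 were again lower and none higher, beside 4.03% of all genes lower and 3.83% higher, and the corrected median was -0.54.

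The feedback regulator INSIG1 fell most. Its level was 95.7, 115 and 94.99 CPM in the 3 Control tumors and 63.3, 55.5, 54.2, 61.5 and 56.4 CPM in the 5 Palbociclib tumors. The highest Palbociclib tumor thus lay below the lowest Control tumor, and the fitted level was 0.573 of Control (log2 fold change -0.80 ± 0.10, where the value after ± is the SE here and for each log2 value below, adjusted p = 3.94e-05). HMGCS1, at the entrance of the route, had 208, 232 and 238 CPM in Control and 157, 142, 153, 154 and 137 CPM in Palbociclib tumors. These groups did not overlap either, and the fitted level was 0.662 of Control (log2 -0.59 ± 0.078, adjusted p = 6.25e-05).

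Among the isoprenoid enzymes, IDI1 had 92.7, 119.7 and 102 CPM in Control tumors and 71.8, 74.3, 79.5, 67.3 and 65.6 CPM in Palbociclib tumors (-0.54 ± 0.10 on the log2 scale, adjusted p = 0.00154). FDPS, which supplies both squalene synthesis and protein prenylation, had 151, 171 and 161 CPM in Control and 118, 101, 115, 109.7 and 99.2 CPM in Palbociclib tumors (-0.56 ± 0.08, adjusted p = 0.000148). Neither gene's groups overlapped. At the commitment to sterols, FDFT1 had 214, 249.9 and 236 CPM in Control and 175, 167, 165, 151 and 143 CPM in Palbociclib tumors (-0.54 ± 0.092, adjusted p = 0.000854). SQLE, the next enzyme, had 145, 157 and 156 CPM in Control and 129, 129, 125, 138 and 111 CPM in Palbociclib tumors. All 5 treated values of SQLE lay below the 3 Control values, but its log2 fold change of -0.27 ± 0.088 did not pass the test (adjusted p = 0.0837, 95% interval -0.45 to -0.082).

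The late enzymes LSS and DHCR7 were lower too. LSS had 58.9, 61.1 and 58.9 CPM in Control and 45.3, 24.3, 44.2, 38.5 and 37.2 CPM in Palbociclib tumors (log2 fold change -0.65 ± 0.14, adjusted p = 0.00735). DHCR7 had 77.2, 86.1 and 102 CPM in Control and 70.1, 41.9, 73.1, 61.9 and 59.5 CPM in Palbociclib tumors (-0.52 ± 0.13, adjusted p = 0.0211). Palbociclib tumor 2 was the lowest of its group for both genes, and its slope on GC content, 0.0958, was also the lowest of the 5. By Dixon's test its gap was not past the critical ratio of 0.71 for either gene (0.684 and 0.629). Without that tumor, the log2 fold change of LSS was -0.52 and that of DHCR7 -0.41. The corrected changes with all tumors were -0.68 ± 0.10 for LSS and -0.53 ± 0.11 for DHCR7. DHCR7 missed the threshold without Control tumor 2 (adjusted p = 0.0636) or Control tumor 3 (adjusted p = 0.167).

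All 8 genes had every Palbociclib tumor below every Control tumor, an arrangement that 7.90% of all tested genes showed in this direction. After the correction it held for 7, with SQLE overlapping, beside 7.85% of all genes. When all 28 libraries were fitted at once, so that cultures shared in the estimate of the spread, 3 of the 8 were lower in Palbociclib tumors, beside 2.25% of all genes lower and 1.07% higher in that fit, and 3 were lower in combination tumors, beside 19.8% and 20.7%.

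**Figure D2:**
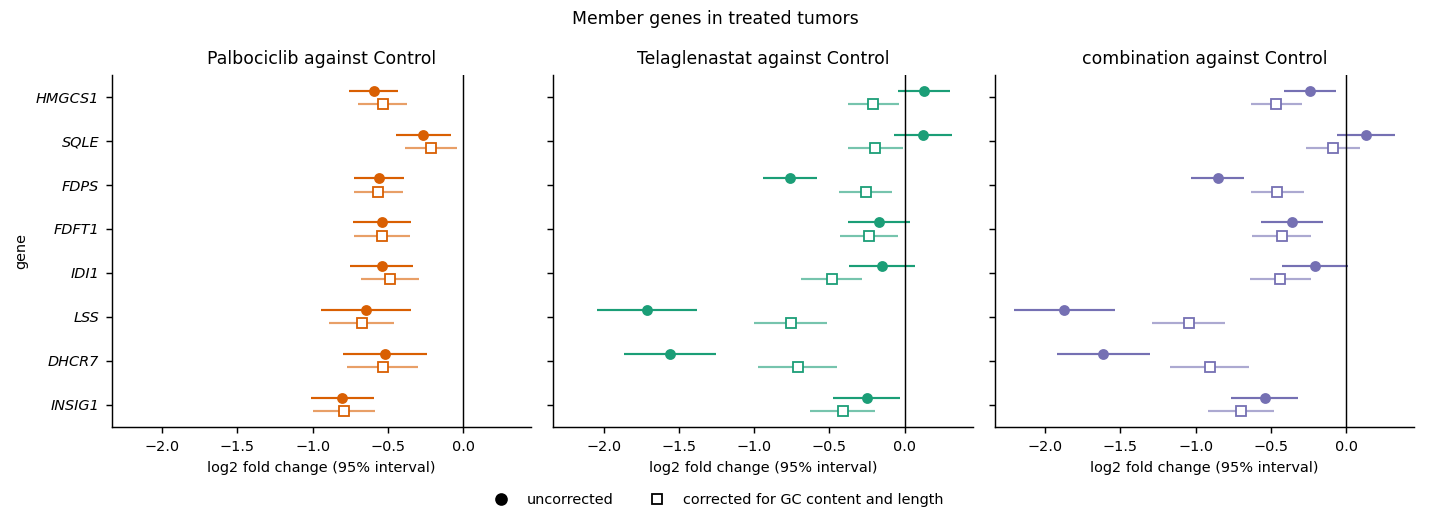
Log2 fold changes of the 8 genes in treated against Control tumors, as counted and after correction for GC content and exon length, with 95% intervals. With Palbociclib the pairs of values nearly coincide, between -0.80 for INSIG1 and -0.27 for SQLE as counted, while with Telaglenastat LSS moves from -1.71 to -0.76 and DHCR7 from -1.56 to -0.71.

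In Telaglenastat tumors the genes did not move alike as counted. LSS, DHCR7 and FDPS were lower than in Control tumors and the other 5 genes did not pass the test, so that 3 of the 8 were lower and none higher, beside 28.5% of all tested genes lower and 22.6% higher. LSS had 19.003, 21.8, 18.95 and 18.5 CPM in the 4 Telaglenastat tumors, all far below the Control values of 58.9 CPM or more (log2 fold change -1.71 ± 0.16, adjusted p = 5.48e-08). DHCR7 had 34.5, 28.5, 30.1 and 36.3 CPM, against at least 77.2 CPM in Control (-1.56 ± 0.15, adjusted p = 6.99e-08). FDPS had 108, 106, 92.1 and 103 CPM, against at least 151 CPM (-0.76 ± 0.085, adjusted p = 4.79e-07). All 3 lay wholly below Control, as did 26.3% of all tested genes. These 3 are the members of highest GC content. The summed fibroblast markers, 48.01 to 61.1 CPM against 151 to 192 CPM in Control, were lower in these tumors too, and their part was not tested.

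The genes of lower GC content lay near or on either side of Control. HMGCS1 had 268, 284, 275 and 237 CPM in Telaglenastat tumors (log2 fold change 0.13 ± 0.082, adjusted p = 0.198), with 1 value inside the Control range. SQLE had 189.6, 168, 189 and 171 CPM, all 4 above the 3 Control tumors (0.12 ± 0.093, adjusted p = 0.281), an arrangement that 31.1% of all tested genes showed in this direction. FDFT1 had 219, 211, 230.1 and 234 CPM (-0.17 ± 0.097, adjusted p = 0.154). FDFT1 overlapped with Control, as did the next pair of genes. IDI1 had 100.3, 102, 116 and 90.3 CPM (-0.15 ± 0.10, adjusted p = 0.25), and INSIG1 had 82.9, 89.04, 110.3 and 87.4 CPM (-0.25 ± 0.11, adjusted p = 0.0537). With 1 scaling over all 28 libraries the median of all genes in this comparison was 0.13 on the log2 scale, against 0.03 in the scaling of tumors alone, so the printed CPM of Telaglenastat tumors sit slightly high relative to the fold changes.

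After the correction the 8 genes no longer split. All had negative log2 fold changes, from -0.76 to -0.19, and 5 were lower and none higher, beside 7.58% of all genes lower and 5.59% higher. The 5 were LSS at -0.76 ± 0.12 (adjusted p = 0.000149), DHCR7 at -0.71 ± 0.13 (adjusted p = 0.000626), IDI1 at -0.48 ± 0.096 (adjusted p = 0.00158), INSIG1 at -0.41 ± 0.10 (adjusted p = 0.0101) and FDPS at -0.26 ± 0.084 (adjusted p = 0.0465). The corrected levels of LSS were 38.98, 40.9 and 39.1 in Control and 21.9, 25.8, 24.5 and 22.04 in Telaglenastat tumors, still without overlap but closer than before. Corrected, 7 of the 8 lay wholly below Control, beside 12.9% of all genes. HMGCS1 and SQLE changed sign with the correction, to -0.21 ± 0.081 and -0.19 ± 0.087, and passed the test in neither form. FDPS missed the threshold whenever 1 tumor was left out of the corrected fit (log2 fold change -0.30 to -0.22), as did INSIG1 without Control tumor 2 (log2 fold change -0.33, adjusted p = 0.0841), while LSS, DHCR7 and IDI1 passed it in every such fit.

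**Figure D3:**
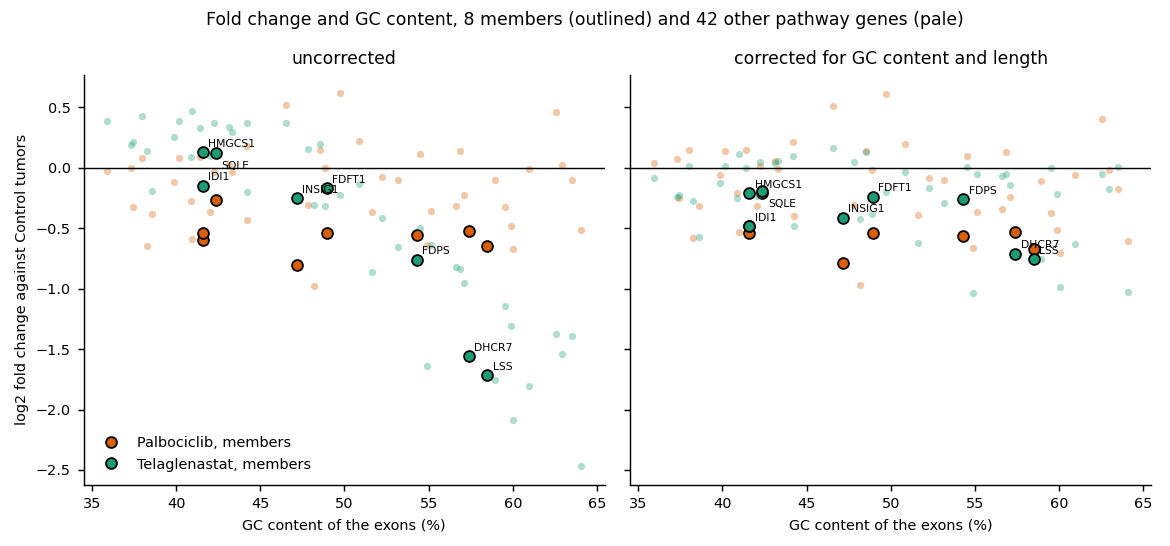
Log2 fold change of the 8 genes in treated against Control tumors, plotted against the GC content of their exons in percent, as counted and corrected, with the other 42 pathway genes as pale points. In Telaglenastat tumors the uncorrected values run from 0.13 for HMGCS1, at 41.6% GC, to -1.71 for LSS, at 58.5% GC, and the corrected ones from -0.21 to -0.76.

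Tumors under both drugs had 6 of the 8 genes lower than Control and none higher, beside 26.9% of all genes lower and 17.6% higher. This comparison and those of the single drugs share the 3 Control tumors. After the correction 7 were lower and none higher, beside 13.1% and 13.0%. LSS, with 14.1, 17.9, 17.1 and 20.5 CPM in the 4 combination tumors, stood at -1.87 ± 0.16 on the log2 scale (adjusted p = 5.74e-08), and at -1.05 ± 0.12 corrected (adjusted p = 2.66e-06). DHCR7, with 36.3, 30.6, 27.8 and 29.6 CPM, stood at -1.61 ± 0.15 (adjusted p = 9.09e-08) and -0.91 ± 0.13 corrected (adjusted p = 2.83e-05). Both genes lay below every Control tumor, as in Telaglenastat tumors. FDPS had 110.5, 94.5, 84.04 and 93.3 CPM (-0.85 ± 0.085, adjusted p = 2.26e-07, and -0.46 ± 0.085 corrected), and INSIG1 had 93.7, 71.4, 63.8 and 72.6 CPM (-0.54 ± 0.11, adjusted p = 0.000356, and -0.70 ± 0.10 corrected). Neither overlapped with Control. Thus 4 of the 8 lay wholly below Control, beside 24.6% of all tested genes, and 1, SQLE, wholly above, beside 25.3%. Corrected, 7 lay wholly below, beside 16.5%. These placements were read on 1 scaling over all 28 libraries. There the median of all genes as counted was 0.07 on the log2 scale, against -0.04 with tumors scaled alone. The printed CPM of combination tumors thus sit slightly high relative to the fold changes, which bears on the place of SQLE.

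The remaining genes lay closer to Control. FDFT1 had 239, 178, 159 and 206 CPM in combination tumors (log2 fold change -0.36 ± 0.098, adjusted p = 0.00527). HMGCS1 had 238, 208, 179 and 196 CPM (-0.24 ± 0.082, adjusted p = 0.0225). In both genes combination tumor 1 was the highest of its group, and the groups overlapped with Control. HMGCS1 missed the threshold without Control tumor 2, Control tumor 3 or combination tumor 3 (adjusted p = 0.0695, 0.104 and 0.0748), and also with the replicate number as a replicate block (adjusted p = 0.0508), but in the corrected fit it was -0.46 ± 0.082 (adjusted p = 0.000289) and passed whichever tumor was left out. IDI1 had 109, 106, 78.2 and 96.4 CPM (-0.21 ± 0.11, adjusted p = 0.115) and passed only with the correction (-0.44 ± 0.097, adjusted p = 0.00216). SQLE, with 224, 172, 159.8 and 165 CPM, passed in neither form (0.13 ± 0.093, adjusted p = 0.26, and -0.087 ± 0.087 corrected, adjusted p = 0.516).

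Set against Palbociclib tumors, combination tumors had 3 genes lower and 4 higher as counted, beside 27.5% of all genes lower and 20.1% higher. LSS, at -1.23 ± 0.15, DHCR7, at -1.09 ± 0.14, and FDPS, at -0.29 ± 0.077, were lower. SQLE, at 0.40 ± 0.082, HMGCS1, at 0.35 ± 0.073, IDI1, at 0.33 ± 0.094, and INSIG1, at 0.26 ± 0.097, were higher, and INSIG1 missed the threshold without any 1 of 3 tumors (Palbociclib tumor 3 or 5 or combination tumor 1, adjusted p = 0.0667, 0.0568 and 0.167). With the correction only LSS (-0.37 ± 0.11, adjusted p = 0.024) and DHCR7 (-0.37 ± 0.12, adjusted p = 0.0348) of the 8 still differed, both lower, beside 7.61% of all genes lower, and the other 6 had log2 fold changes between 0.048 and 0.13. None of the 4 genes that stood higher as counted passed the test with the correction. FDPS, lower as counted, changed sign with the correction and did not pass the test either.

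Set against Telaglenastat tumors, only HMGCS1 of the 8 differed in combination tumors, at -0.37 ± 0.077 on the log2 scale (adjusted p = 0.00199), beside 9.89% of all genes lower. Corrected, it was -0.26 ± 0.076 (adjusted p = 0.0266), beside 7.07%. It did not pass in the fit of all 28 libraries, whereas 2 of the 8 passed without Telaglenastat tumor 1 and 3 without combination tumor 1. Of all genes, 1167 of 14823 were lower and 1141 higher without the former tumor. Without the latter 1409 of 14825 were lower and 1379 higher. Whether the drugs together did more or less than the sum of their single log2 effects was tested as a further term. By edgeR it passed for 0 of the 8 genes (0.0673% of all genes passed), and for 7 of them the unadjusted p was under 0.05, beside 9.59% of all genes. DESeq2 called 1 of the 8, beside 63 negative and 30 positive terms among 14848 genes. The term was positive in each gene, from 0.22 to 0.51 and from 0.28 to 0.53 corrected, and these 8 estimates share the same tumors.

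The other genes of the pathway, 42 in 6 lists, were examined beside the 8. Palbociclib tumors had 9 of the 42 lower than Control and 1 higher, and 11 and 1 after the correction, beside 3.60% and 2.55% of all genes as counted and 4.03% and 3.83% corrected. The calls as counted fell on 2 of 5 enzymes before squalene, 6 of 9 after it and 2 of 7 genes of uptake and transport (1 lower and 1 higher). By edgeR 0 of the 6 SREBP regulators, 0 of the 6 genes of efflux, LXR and esterification and 0 of the 9 of the isoprenoid branch passed, with 2, 0 and 0 at an unadjusted p under 0.05, beside 18.2% of all genes. ACAT2, which makes acetoacetyl-CoA, fell by 0.98 on the log2 scale (adjusted p = 0.000848), from 52.1, 61.2 and 62.7 CPM to 34.97, 24.1, 36.02, 30.3 and 21.6 CPM, but it shares 397 exonic bases with the abundant TCP1 on the opposite strand. EBP, a sterol isomerase, was at -0.64 ± 0.15 (adjusted p = 0.0131), and STARD4, a sterol carrier, at -0.64 ± 0.11 (adjusted p = 0.000945). NPC2, a lysosomal cholesterol carrier and the single gene of the lists that rose, was chosen after its values were seen and was at 0.62 ± 0.12 (adjusted p = 0.00184).

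Of the SREBP regulators, SREBF2, which encodes SREBP2, was at -0.23 ± 0.11 (adjusted p = 0.259), SCAP at -0.014 ± 0.17 (adjusted p = 0.983) and INSIG2 at -0.003 ± 0.12 (adjusted p = 0.994), and none passed the test. The difference between regulators and enzymes was not itself tested.

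In Telaglenastat tumors 19 of the 42 were lower and 10 higher as counted, beside 28.5% and 22.6% of all genes, and 8 lower and 0 higher with the correction, beside 7.58% and 5.59%. The share higher as counted was thus near that of all genes. MVD, the decarboxylase that makes the isoprene unit, was at -2.47 ± 0.25 (adjusted p = 1.7e-07) and -1.03 ± 0.19 corrected (adjusted p = 0.000874). SCAP was at -1.81 ± 0.19 and -0.63 ± 0.14 and passed the test both ways. SREBF2 was at -0.95 ± 0.11 (adjusted p = 1.04e-06) as counted and -0.14 ± 0.10 corrected (adjusted p = 0.45). INSIG2 passed in neither form. In combination tumors 19 were lower and 7 higher, beside 26.9% and 17.6%, and 12 and 3 corrected, beside 13.1% and 13.0%. MVD was at -2.61 ± 0.26 and -1.43 ± 0.19 corrected, and MVK, mevalonate kinase, at -1.62 ± 0.20 and -0.69 ± 0.19. Both passed the test in both forms, as did SREBF2 at -1.12 ± 0.11 and -0.40 ± 0.11 corrected (adjusted p = 0.00792). MVK shares 306 exonic bases with MMAB on the opposite strand.

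**Figure D4:**
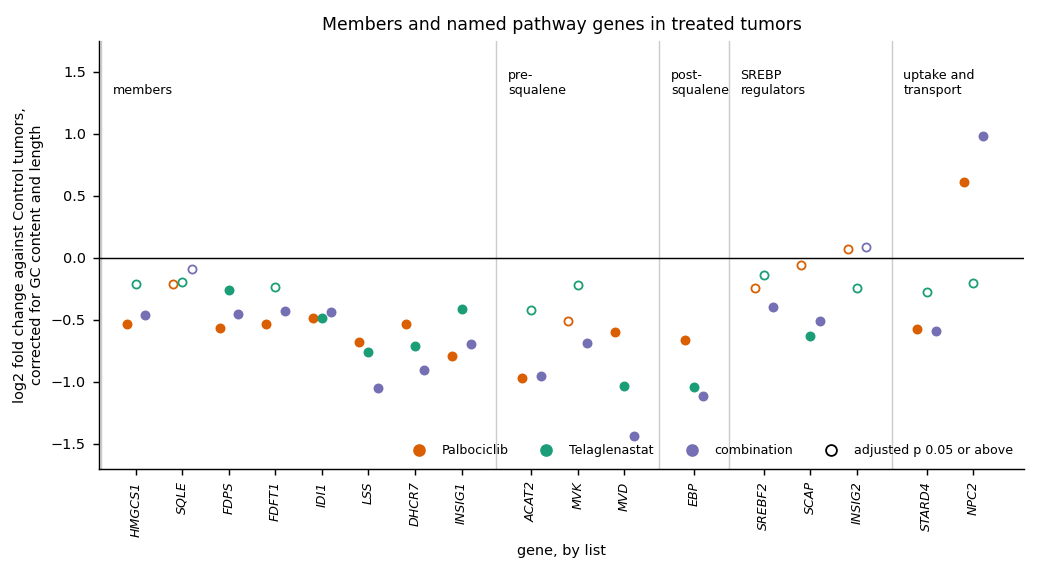
Corrected log2 fold changes of the 8 genes and of the other pathway genes named in the text in treated against Control tumors, grouped by role, with open points at an adjusted p of 0.05 or above. In Palbociclib tumors ACAT2 lies at -0.97, and SCAP at -0.06.

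Promoter sequence from RefSeq on GRCh38.p14, 250 bases before to 50 after each start, was at hand for 6 of the 8 genes in 10 windows. SREBP2 binds sterol regulatory elements together with NF-Y, which binds the CCAAT box. The element searched, TCACNCCAC on either strand, was in none of these windows, against 1.13% of all 35116 promoters. Its shorter core, CACNCCA, which lies within the longer form, was in windows of INSIG1 and IDI1, in the latter inside an annotated exon, against 17.6% of all promoters and 20.6% of all genes. CCAAT was in at least 1 window of all 6 genes and in 7 of the 10 windows, against 34.6% of promoters and 39.7% of genes. A match is a description of letters and not a shown site, and no match says only that the letters are not in this window. The stretches below, outside annotated exons, are shown because they hold CCAAT or its reverse complement ATTGG, in capitals, in genes that were lower in Palbociclib tumors, and in INSIG1 the capitals also mark the reverse complement of the core, TGGCGTG.
HMGCS1, chr5:43313533-43313597, minus strand: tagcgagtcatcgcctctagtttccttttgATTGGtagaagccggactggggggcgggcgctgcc
IDI1, chr10:1049202-1049364, minus strand: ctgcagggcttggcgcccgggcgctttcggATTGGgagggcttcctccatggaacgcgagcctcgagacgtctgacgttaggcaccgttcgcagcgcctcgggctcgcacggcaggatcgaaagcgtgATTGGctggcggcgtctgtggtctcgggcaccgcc
FDPS, chr1:155308660-155308724, plus strand: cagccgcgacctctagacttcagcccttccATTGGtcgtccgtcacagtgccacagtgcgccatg
LSS, chr21:46228890-46228954, minus strand: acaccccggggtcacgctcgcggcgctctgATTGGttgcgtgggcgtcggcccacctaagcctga
DHCR7, chr11:71448436-71448517, minus strand: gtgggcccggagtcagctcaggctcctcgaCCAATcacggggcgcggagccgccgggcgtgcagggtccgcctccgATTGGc
INSIG1, chr7:155297641-155297742, plus strand: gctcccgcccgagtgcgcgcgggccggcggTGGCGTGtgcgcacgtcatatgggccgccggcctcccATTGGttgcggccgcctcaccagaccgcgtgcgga

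Each stretch reads 5′ to 3′ on the strand of its gene. The marked CCAAT match of HMGCS1 lies 155 to 151 bases before the start of its window's transcript, and that of LSS lies 150 to 146 bases before its own start. Another match in the HMGCS1 window, 100 to 96 bases before the start, falls outside the stretch shown. The core match of INSIG1 lies 207 to 201 bases before the start and its CCAAT match 170 to 166 bases before it.

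In cultures freed of the drugs the 8 genes gave no call in any of the 5 comparisons. By edgeR 0 of the 8 passed for Palbociclib, Telaglenastat or the combination against Control or for the combination against either drug, beside 0%, 0%, 0.00715%, 0% and 0% of all 13985 tested genes. After the correction 0 of the 8 passed in each, beside 0%, 0%, 0.00715%, 0.00715% and 0%. DESeq2 on the counts also called 0 of the 8 in each. Of all 13985 genes it called 0 lower and 0 higher for Palbociclib and 3 and 16 for Telaglenastat. It called 2 and 1 for the combination against Control, 3 and 0 against Palbociclib and 112 and 29 against Telaglenastat. At an unadjusted p under 0.05 stood 0 genes for Palbociclib, 0 for Telaglenastat, 1 for the combination against Control (LSS), 0 for the combination against Palbociclib and 3 for the combination against Telaglenastat (FDPS, LSS and DHCR7). The shares of all genes at that level were 4.23%, 6.42%, 6.40%, 1.98% and 14.1% in the same order. After the correction LSS remained at that level in the combination against Control, beside 5.36% of all genes, and 0 genes in the combination against Telaglenastat, beside 6.11%. As counted, in the last comparison 2 of the 8 passed without a filter on low counts, and 2 without Telaglenastat culture 1. Of all genes, 698 of 30911 were lower and 54 higher without the filter. Without that culture 591 of 14332 were lower and 325 higher.

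HMGCS1 had 171, 189 and 119 CPM in Control, 195, 148 and 213 in Palbociclib, 113, 146 and 204 in Telaglenastat and 121, 191 and 154 in combination cultures. INSIG1 had 80.1, 103 and 59.3 CPM in Control, 76.4, 66.1 and 96.1 in Palbociclib, 52.8, 71.8 and 132 in Telaglenastat and 62.3, 97.7 and 65.3 in combination cultures. All groups of these 2 genes overlapped with Control. LSS had 28.1, 20.9 and 28.9 CPM in Control, 17.8, 17.1 and 18.3 in Palbociclib, 14.3, 45.9 and 17.3 in Telaglenastat and 10.9, 18.4 and 15.1 in combination cultures. DHCR7 had 57.4, 36.5 and 50.6 CPM in Control, 37.3, 39.6 and 38.8 in Palbociclib, 25.1, 84.5 and 41.9 in Telaglenastat and 27.1, 35.8 and 28.9 in combination cultures. Telaglenastat culture 2 was the highest of the 12 for both, and it was the culture with the steepest slope on GC content. The LSS levels of Palbociclib and combination cultures lay below all 3 Control cultures, as did the DHCR7 and FDPS levels of combination cultures. Of all tested genes 9.98% showed this arrangement for Palbociclib and 10.3% for the combination. After the correction it held for LSS alone of the 8 in both, beside 5.17% and 10.1% of all genes. The remaining genes ranged over the 12 cultures from 121 to 209 CPM for SQLE, 102 to 200.4 for FDPS, 146 to 308 for FDFT1 and 77.3 to 173 for IDI1, with the highest SQLE, FDFT1 and IDI1 levels in Telaglenastat culture 3.

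The 95% intervals in cultures were wide. For Palbociclib against Control cultures, INSIG1 was at -0.026 on the log2 scale with an interval of -0.67 to 0.62, which leaves out its tumor value of -0.80. The intervals of HMGCS1 (-0.29 to 0.71), FDFT1 (-0.39 to 0.59) and IDI1 (-0.43 to 0.67) likewise left out the tumor values, while those of SQLE, FDPS, LSS and DHCR7 held them, as with -1.31 to 0.21 for LSS. These intervals, all as counted, do not take in the error of the tumor values. They are therefore no test of a difference between cultures and tumors, which is given below. For Telaglenastat LSS was at -0.009 (-0.76 to 0.74), and for the combination at -0.81 (-1.57 to -0.037). The 8 genes ranged from -0.55 to 0.21 for Palbociclib, from -0.14 to 0.09 for Telaglenastat and from -0.81 to 0.00 for the combination, with smallest adjusted p of 0.795, 0.939 and 0.681. After the correction they ranged from -0.18 to 0.08, from -0.15 to 0.07 and from -0.51 to -0.10, and the log2 fold changes of the combination were -0.80 to 0.02 as counted and -0.36 to -0.09 corrected against Telaglenastat, and -0.33 to -0.06 and -0.36 to -0.04 against Palbociclib. SREBF2 was at -0.39, 0.13 and -0.13 as counted for the 3 treatments in that order, SCAP at -0.71, -0.16 and -0.69 and INSIG2 at 0.05, 0.41 and 0.40, with no adjusted p of these 9 values below 0.681.

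**Figure D5:**
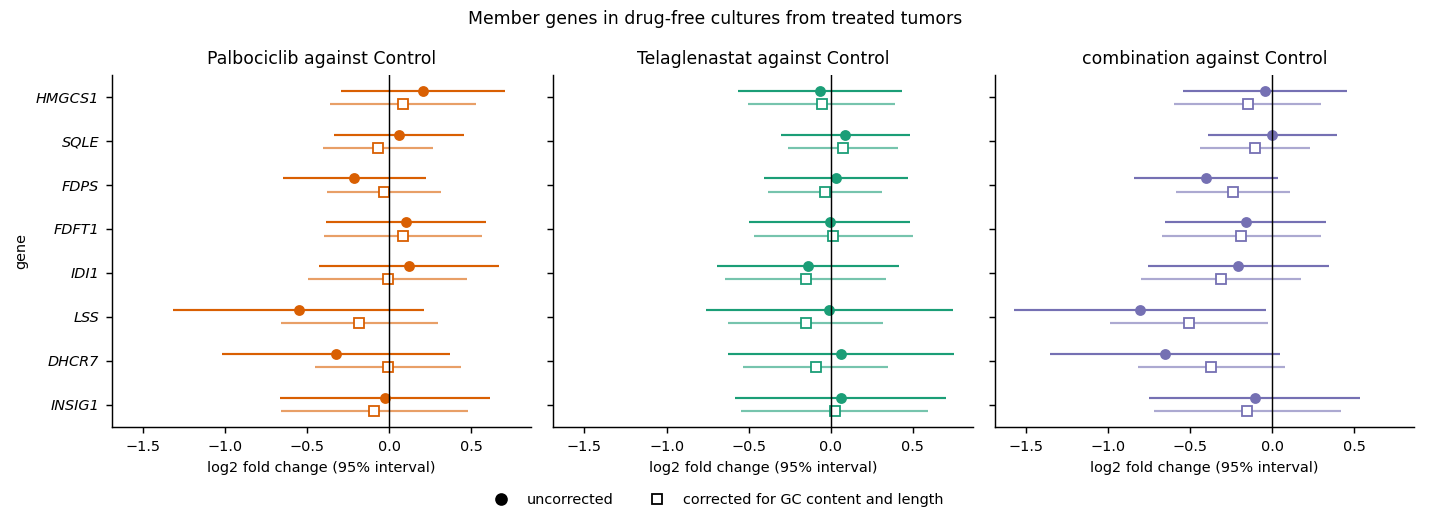
Log2 fold changes of the 8 genes against Control in cultures, as counted and after correction for GC content and exon length, with 95% intervals. The intervals are wide and cross 0 except those of LSS in combination cultures, at -0.81 as counted and -0.51 corrected. LSS missed the threshold after adjustment in both forms.

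Whether a drug's effect differed between cultures and tumors was tested directly, in 1 fit of all 28 libraries. For Palbociclib 0 of the 8 genes passed, beside 1.39% of 15466 genes, although 4 had a higher effect in cultures at an unadjusted p under 0.05, beside 7.29% in that direction. DESeq2 called 1 of the 8, beside 104 lower and 375 higher of 15466 genes. After the correction 0 passed, beside 1.03%, and 6 were higher at an unadjusted p under 0.05, beside 5.37%. HMGCS1 was the largest as counted, with an effect 0.81 ± 0.24 higher in cultures (adjusted p = 0.0845) and 0.63 ± 0.22 corrected (adjusted p = 0.211). As counted 1 gene of the 8 passed without Control culture 2, beside 113 lower and 201 higher of 15946 genes. For Telaglenastat the effects on FDPS (0.70 ± 0.22 higher in cultures, adjusted p = 0.0135), LSS (1.62 ± 0.38, adjusted p = 0.00204) and DHCR7 (1.53 ± 0.35, adjusted p = 0.00192) differed, beside 18.5% of all genes with a higher effect in cultures. None of the 3 passed after the correction, where 2.56% of all genes did and 2 of the 8 were at an unadjusted p under 0.05, beside 17.8%. As counted, FDPS also missed the threshold without Control culture 2 (adjusted p = 0.0568) or Telaglenastat culture 2 (adjusted p = 0.0763). Without Telaglenastat culture 2 the difference was 0.89 for LSS (adjusted p = 0.0207) and 0.92 for DHCR7 (adjusted p = 0.0169). For the combination 0 of the 8 passed, beside 2.91%, with 2 at an unadjusted p under 0.05, beside 20.8%. The corrected fit gave the same counts, beside 2.64% and 16.7%.

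Between untreated settings, Control cultures had lower HMGCS1, LSS and DHCR7 than Control tumors, 3 of the 8, beside 23.1% of all genes lower. LSS was at -1.20 ± 0.27 on the log2 scale (adjusted p = 0.00074), DHCR7 at -0.88 ± 0.26 (adjusted p = 0.00625) and HMGCS1 at -0.50 ± 0.18 (adjusted p = 0.0228). After the correction, HMGCS1 (-0.83 ± 0.16, adjusted p = 0.000194), LSS (-0.54 ± 0.17, adjusted p = 0.0142) and SQLE (-0.40 ± 0.13, adjusted p = 0.0191) were lower, beside 17.8% of all genes, and DHCR7 was not (-0.38 ± 0.18, adjusted p = 0.0953). As counted, HMGCS1 missed the threshold without Control culture 3, Control tumor 2 or Control tumor 3 (adjusted p = 0.163, 0.0594 and 0.0706) and DHCR7 without Control culture 2 (adjusted p = 0.0521). Fibroblast markers moved with this comparison, from 151 to 192 CPM in Control tumors to 4.22 to 5.34 CPM in Control cultures, and their part in it was not tested.

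How far the 8 genes moved together was described by Pearson's r of log2 CPM between pairs of genes, over libraries that share treatments, scaling and GC trends, and is given without a p. Over the 16 tumors the 28 pairs ranged from -0.57 to 0.96 (median 0.49), and after the correction from 0.26 to 0.95 (median 0.70). Over the 12 cultures they ranged from -0.0035 to 0.96 (median 0.55) and, corrected, from 0.53 to 0.95 (median 0.85). The negative pairs in tumors joined LSS, DHCR7 or FDPS with genes of lower GC content, such as LSS with HMGCS1 at -0.22 as counted and 0.69 corrected.

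The genes most like the mean of the 8 in tumors were PLK1, ASF1B, FEN1, KIFC1 and TUBB, with r from 0.91 to 0.93 over 16 libraries. After the correction they were ZNF100, ACAT2, ADORA2B, CDCA8 and H2AFZ, with r from 0.88 to 0.93. PLK1, KIFC1 and CDCA8 act in mitosis, and ASF1B and FEN1 in DNA replication. The 5 genes as counted had GC contents of 52.5 to 59.6%, and none of them was among the 5 after the correction. Of 41 other pathway genes compared, 4 were in the top 100 of 12937 genes ranked as counted, and 6 in the top 100 of 12906 corrected. In cultures the genes most like the mean were BIRC5, MRTO4, PSMB2, ACTG1 and PGAM1 (0.95 to 0.97, 12 libraries) and, corrected, GOSR2, IDH3A, UBQLN1, PSPC1 and CDK1 (each 0.97). There 1 of the 41 pathway genes was in the top 100 in each form, of 12164 genes ranked as counted and 12146 corrected.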

How the data were processed

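RNA-seq covered 16 xenograft tumors and 12 cultures of HCT116 cells. The authors selected poly(A) RNA with an integrity number above 8, prepared NEBNext libraries whose second strand held uracil, read 60 bases from 1 end and processed the reads with CASAVA 1.8 and STAR, against hg38 per the submitters' processing notes. The deposited values are counts, whole numbers of reads per gene and library without normalization. The annotation release, the use of strand in counting and the handling of mouse reads are not given in the sources used here.

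From these counts, edgeR 4.0.16 in R 4.3.3 was fitted (TMM scaling, filterByExpr with a minimum count of 10, glmQLFit and glmQLFTest, Benjamini-Hochberg adjustment, threshold 0.05) to tumors (14848 genes) and cultures (13985 genes) apart, and to all 28 libraries (15466 genes) for comparisons between them, in each case as group means. SE came from the log2 fold change and F. Printed CPM used 1 TMM scaling over all 28 libraries, and log2 CPM a prior count of 2. The correction removed, in every library, a robust natural spline trend (4 degrees of freedom; rlm of MASS) on GC content and log2 exon length through offsets. GENCODE release 29 on GRCh38, which matched 57895 of the 58278 gene IDs, gave coordinates, lengths and GC content and need not be the authors' annotation. Promoters came from RefSeq on GRCh38.p14.

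The fits were tested on simulated data. Groups were taken from the sample labels. Same-numbered libraries of different groups correlated at -0.13 to 0.09 in tumors and -0.42 to 0.14 in cultures, so replicate numbers were not taken as pairs. No 2 libraries of a group agreed within sampling noise. The members, gene lists and tests were chosen with earlier results of these data known. Besides the 8 members, the rule named the 3 pathway genes with the largest called change in each comparison with Control, plus SREBF2, SCAP and INSIG2, and the 5 genes most like the members. A few genes the rule would name are not reported here but stay in the counts over lists. The shown CCAAT stretches were chosen after the motif matches were seen. Alternatives were DESeq2 1.42.0, its size factors within edgeR, other filters, a replicate block, the correction, other sample sets and leaving out each library. Leaving out each tumor within the correction was added after the data were seen.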

Additional observations from a re-analysis of the deposited data

Results flagged for a closer look

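The effect of Telaglenastat on 3 of the genes differed between cultures and tumors by the test of the difference itself. Such differences were common as counted. Of all 15466 genes in that test, 18.5% passed with a higher effect in cultures and 15.6% with a lower one. The log2 fold change against Control was 0.70 higher in cultures than in tumors for FDPS, 1.62 higher for LSS and 1.53 higher for DHCR7 in 1 fit of all 28 libraries. Fitted apart, with a scaling of their own, tumors had effects of -0.76, -1.71 and -1.56 and cultures of 0.03, -0.01 and 0.06, which do not subtract exactly to those differences. In the same fit with the correction for GC content and length the differences for LSS and DHCR7 were 0.60 and 0.62, and neither passed the test by edgeR (adjusted p = 0.182 for DHCR7). Telaglenastat culture 2, whose slope on GC content was 0.422 against -0.03 and -0.02 in the other cultures of its group, had the highest LSS and DHCR7 levels of all 12 cultures, and without it the differences were 0.52 for FDPS, 0.89 for LSS and 0.92 for DHCR7, of which FDPS missed the threshold. Leaving out any 1 library gave 0.89 to 1.91 for LSS and 0.92 to 1.85 for DHCR7.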

How the results depend on the processing

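For the 8 genes in treated against Control tumors and in Control cultures against Control tumors, directions and calls held under most settings. Outside the fits that left out 1 library, 221 values kept their direction and their side of the threshold, 15 lost a call, 12 gained one and 8 changed sign. In the other comparisons only the number of the 8 genes called was tallied, and it moved with the setting in several, as given below. Of the 8 genes, 3 passed for Palbociclib and 3 for the combination against Control tumors in 1 fit of all 28 libraries, and for Telaglenastat 5 passed with the correction for GC content and length and 5 when only the compared groups were fitted. The last of these fits called 4251 of 13895 genes lower and 3516 higher. For the combination against Palbociclib tumors 2 passed with the correction, with or without the replicate block, and against Telaglenastat tumors 2 without a filter on low counts, 2 with at least 10 counts in every library, 0 with the replicate block and correction and 0 in the fit of 28. In the comparison with Telaglenastat tumors, 1410 of all 32828 genes were lower and 1343 higher without the filter. With at least 10 counts 1444 of 11609 were lower and 1474 higher. Non-additivity gave 1 by DESeq2 and 3 without a filter, beside 139 negative and 96 positive terms among 32828 genes in the latter fit. The combination against Telaglenastat cultures gave 2 without a filter, the Palbociclib effect between cultures and tumors 1 by DESeq2 and 4 without a filter, the Telaglenastat effect 0 with the correction and the combination effect 2 without a filter. Without a filter the Palbociclib effect passed for 293 of all 36046 genes as lower and 315 as higher in cultures. The combination effect passed for 241 as lower and 1001 as higher. The causes were not tested. Leaving out 1 library gave 6 to 7 genes for Palbociclib, 3 to 4 for Telaglenastat and 5 to 6 for the combination against Control tumors, 6 to 8 for the combination against Palbociclib tumors and 1 to 3 against Telaglenastat tumors (2 without Telaglenastat tumor 1 and 3 without combination tumor 1), 0 to 2 in cultures (2 without Telaglenastat culture 1), 0 to 1 for the Palbociclib effect (1 without Control culture 2), 2 to 3 for the Telaglenastat effect and 2 to 3 for Control cultures against tumors. Of all 14755 to 15206 genes in these tumor fits, 305 to 627 were lower and 189 to 490 higher for Palbociclib. They were 3886 to 4120 and 2708 to 3056 for Telaglenastat and 3522 to 3845 and 2068 to 2507 for the combination. For the combination against Palbociclib tumors they were 3705 to 4210 and 2535 to 3365. Within the correction the tumor counts of the 8 genes against Control were 6 to 7, 3 to 4 and 7. Of all genes, 350 to 597 were then lower and 297 to 538 higher for Palbociclib. They were 755 to 1024 and 571 to 747 for Telaglenastat and 1467 to 1880 and 1451 to 1781 for the combination. HMGCS1 with Telaglenastat changed sign to -0.21 with the correction and -0.20 with the replicate block added, and was -0.27, -0.19, -0.17, -0.23, -0.25, -0.21 and -0.16 when 1 tumor at a time was left out of the corrected fit. SQLE went to -0.19 and -0.20, and to -0.23, -0.18, -0.17, -0.24, -0.17, -0.20 and -0.17. SQLE with the combination went to -0.087 and -0.096, and to -0.12, -0.071, -0.068, -0.18, -0.058, -0.050 and -0.063. Between Control cultures and tumors FDPS was at 0.26 with the correction and at -0.15 to 0.082 without 1 library (0.082 without Control culture 2 and 0.013 without Control tumor 2), and IDI1 was at -0.067 with the correction. With the replicate block alone HMGCS1 in combination against Control tumors was at -0.22 (adjusted p = 0.0508 by edgeR). Replicate numbers did not pair the libraries.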
